A study of Mus musculus with 136 samples.

Results

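The genes Otx2, Six3, Rax, Hesx1, Lhx2, Gbx2, En1, En2 and Egr2 encode transcription factors that mark the forebrain, midbrain and hindbrain territories of the early neural plate. They were chosen by gene symbol, as known regional factors, and make up 9 of the 47643 genes in the count table. Earlier results of these data were known when they were chosen. Their RNA was measured in 66 whole mouse embryos at E8.5 and, as a background tissue, in the 66 visceral yolk sacs of the same concepti. All animals were of the NOD strain, in which females become diabetic spontaneously through autoimmune loss of insulin-producing cells, so normal and diabetic pregnancies share the same genetic background and no allele was engineered. Embryos with 5–6 somite pairs comprised 17 of normal pregnancies (10 litters) and 17 of diabetic pregnancies (9 litters), and embryos with 7–9 somite pairs comprised 16 from 7 normal litters and 16 from 6 diabetic litters. Maternal blood glucose was 105 to 164 mg/dl in normal and 423 to 595 mg/dl in diabetic dams, with 1 diabetic litter recorded only as above the range of the meter. Littermates share a dam, and up to 4 embryos of a group came from 1 litter, or 7 in the diabetic 7–9 somite group, where litter D24M15 gave 7 of 16. Diabetes in this strain begins at an age that differs between females, and the condition of the dam cannot be told apart from other features of the diabetic mothers.

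The anterior neural plate is divided along its length by transcription factors that repress each other across boundaries. Otx2 specifies forebrain and midbrain, and Gbx2 specifies anterior hindbrain, and their mutual repression places the midbrain-hindbrain boundary, where En1 and En2 are expressed. Six3, Hesx1, Rax and Lhx2 act in the most anterior plate, where Six3 keeps the forebrain free of posteriorizing Wnt signals, Hesx1 is needed for forebrain and pituitary, Rax for the eye field and Lhx2 for the optic vesicle and cortex. Egr2, also called Krox20, marks and specifies rhombomeres 3 and 5 of the hindbrain. These territories are set up before and during the first somite stages, when the head folds rise to form the cranial neural tube.

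In the annotation of GRCm38 the genes are dispersed over the genome, except that Otx2 and Hesx1 both lie on chromosome 14 and Gbx2 and En1 both on chromosome 1. Otx2 (ENSMUSG00000021848) spans chr14:48657677-48673819 on the minus strand, and Hesx1 (ENSMUSG00000040726) spans chr14:26994416-27002329 on the plus strand. Six3 (ENSMUSG00000038805) spans chr17:85613608-85629302, and Lhx2 (ENSMUSG00000000247) spans chr2:38339281-38369733, both on the plus strand. Gbx2 (ENSMUSG00000034486) spans chr1:89927956-89931179 on the minus strand, and En1 (ENSMUSG00000058665) spans chr1:120602418-120607992 on the plus strand. En2 (ENSMUSG00000039095) spans chr5:28165694-28172166 and Egr2 (ENSMUSG00000037868) spans chr10:67535475-67542188, both on the plus strand. For Rax (ENSMUSG00000024518) no position is printed. Annotated genes on the opposite strand overlap Otx2 (Otx2os1), Six3 (Six3os1 and Gm28528), Rax (Raxos1), Lhx2 (Gm27197 and Gm13584), Gbx2 (D130058E05Rik) and En2 (Gm43610). The strand setting used in counting is not given in the sources used here, so reads from a member and from its antisense neighbour may not be fully separated.

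The promoters of Otx2, Six3, Lhx2 and Gbx2 are shown because members moved together or in opposite directions among embryos. Windows from 250 bases before to 50 bases after the annotated start were taken from RefSeq for GRCm38.p6, in which 7 of the 9 members have an entry. Rax and En2 have none there, so no window of theirs is shown. Each is written 5′ to 3′ on the gene's own strand, with capitals at 3 motifs searched on both strands: TAATCC, the site bound by Otx2 and related bicoid-type factors, TAATTA, the core site of many homeodomain factors, and CCGCCC, a GC box. TAATTA reads the same on both strands, and no 2 matches printed here overlap.
Otx2, 1 of its 4 annotated starts, chr14:48665060-48665359, minus strand: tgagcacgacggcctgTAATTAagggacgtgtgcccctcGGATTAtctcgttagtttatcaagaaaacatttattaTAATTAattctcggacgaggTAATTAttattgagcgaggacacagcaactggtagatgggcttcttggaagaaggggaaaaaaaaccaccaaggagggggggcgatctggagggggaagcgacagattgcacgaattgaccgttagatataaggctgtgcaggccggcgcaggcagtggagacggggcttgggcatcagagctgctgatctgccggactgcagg
Six3, chr17:85620584-85620883, plus strand: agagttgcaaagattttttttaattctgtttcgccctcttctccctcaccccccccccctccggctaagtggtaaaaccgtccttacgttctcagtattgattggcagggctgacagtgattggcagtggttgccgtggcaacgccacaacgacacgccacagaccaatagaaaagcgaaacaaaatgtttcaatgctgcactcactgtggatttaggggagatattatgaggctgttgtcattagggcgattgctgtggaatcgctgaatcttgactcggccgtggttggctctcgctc
Lhx2, chr2:38339031-38339330, plus strand: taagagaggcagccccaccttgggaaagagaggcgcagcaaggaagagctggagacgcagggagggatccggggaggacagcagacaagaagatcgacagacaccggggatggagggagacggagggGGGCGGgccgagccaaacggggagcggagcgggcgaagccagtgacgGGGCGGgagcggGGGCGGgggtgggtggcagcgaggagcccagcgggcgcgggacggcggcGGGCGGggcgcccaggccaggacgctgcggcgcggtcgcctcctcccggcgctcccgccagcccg
Gbx2, chr1:89931127-89931426, minus strand: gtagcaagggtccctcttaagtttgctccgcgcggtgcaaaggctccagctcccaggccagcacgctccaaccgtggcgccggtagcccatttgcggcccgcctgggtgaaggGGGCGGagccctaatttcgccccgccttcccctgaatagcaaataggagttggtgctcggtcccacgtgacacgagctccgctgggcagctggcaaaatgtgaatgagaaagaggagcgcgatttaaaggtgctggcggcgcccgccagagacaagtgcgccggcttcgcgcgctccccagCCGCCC
The printed Otx2 window held 1 TAATCC, read as GGATTA on the gene's strand, and 3 TAATTA, the printed Lhx2 window held 4 CCGCCC, and the Gbx2 window held 2, whereas the Six3 window held none of the 3 motifs. Of the Otx2 windows not printed, that at chr14:48667595-48667894 held 1 TAATTA, and the others held no motif. Lhx2 has a further window at chr2:38351058-38351357, not printed, which held no motif. The GC content of the printed windows was 51.0% for Otx2, 50% for Six3, 74.7% for Lhx2 and 64.7% for Gbx2, beside a median of 52.7% over 32851 windows of 27025 symbols. Of all these windows, 7.06% held TAATCC, 5.29% held TAATTA and 35.7% held CCGCCC. These matches describe letters in the window and not bound sites.

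Each library counted 1 read per molecule from the 3′ end of transcripts, with copies of the same molecule removed by a unique molecular identifier (UMI). Totals ranged from 1330731 to 5658850 counts in embryos and from 1017901 to 3888137 in yolk sacs. The levels given here are UMI counts divided by the size factor of the library, called normalized counts, and a call is an adjusted p under 0.05 in a fit of all tested genes. Markers of the neural plate (Sox1, Sox2, Sox3 and Pou3f1) summed to 181 to 701 CPM in embryos and 0 to 48.7 CPM in yolk sacs, and the 10 visceral endoderm markers summed to 45.0 to 1572 CPM in embryos. All libraries matched their labelled sex by sex-linked genes, but 2 of the 66 concepti carry unlike sex labels for embryo and yolk sac, and leaving them out changed no call of a member between the tissues. Duplicate libraries of 2 concepti were left out, and in 1 of those embryos Six3 had 682 counts in the original and 706 in the duplicate and Rax 154 and 165.

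The 9 members were embryonic transcripts with less signal in the yolk sac, with the largest yolk sac levels for Lhx2, En1 and En2. The mean level in the 66 embryos was 109 CPM for Otx2 and 77.6 CPM for Six3, against 0.782 and 0.718 CPM in the 66 yolk sacs, or 0.717% and 0.925% of the embryo. Rax stood at 17.6 CPM in embryos and 0.222 CPM in yolk sacs. Gbx2 was at 20.3 and 0.559 CPM, En1 at 37.4 and 1.72 CPM, with a count in 61 of 66 yolk sacs, and Egr2 at 6.98 and 0.146 CPM. Lhx2 gave 20.9 CPM in embryos and 4.22 CPM in yolk sacs, and all 66 yolk sacs held at least 1 count of it. Hesx1 and En2 were low in both tissues, at 1.39 and 0.114 CPM and at 2.62 and 1.21 CPM, and the yolk sac reached 46.1% of the embryo for En2. Of 7 members that passed the filter on low counts, 7 were called lower in yolk sacs at each stage, where 79.1% of 11677 and 81.2% of 11577 genes were called in either direction, so that being called is by itself no mark of these genes. The log2 difference at 5–6 somite pairs was −7.18 for Six3, −6.77 for Otx2, −5.98 for Rax, −5.34 for Egr2, −5.06 for Gbx2, −4.03 for En1 and −2.04 for Lhx2 (edgeR, largest adjusted p 3.72e-20). The median over the 7 was −5.34, beside −0.00 over all genes tested. Without the filter, Hesx1 was also called lower at 5–6 somite pairs (log2 difference −3.05, edgeR adjusted p = 5.62e-11), while En2 was not (−0.46, adjusted p = 0.212). En2 was called lower in yolk sacs at 7–9 somite pairs (−1.29, adjusted p = 2.04e-06).

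**Figure D1:**
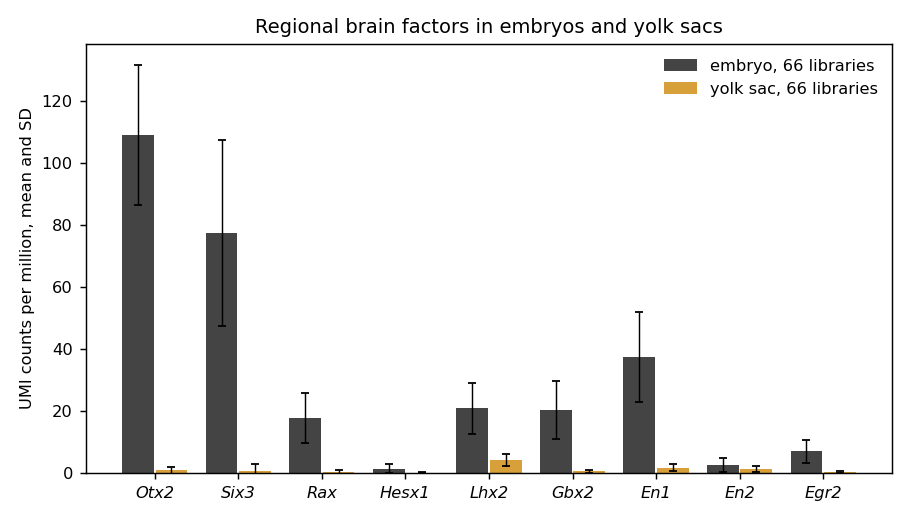
Mean CPM of the 9 members in 66 embryo and 66 yolk sac libraries, with bars starting at 0 and error bars of 1 SD. The yolk sac bar is visible beside the embryo bar for Lhx2 (4.22 against 20.9 CPM), En1 (1.72 against 37.4 CPM) and En2 (1.21 against 2.62 CPM).

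A single yolk sac, of conceptus N24M21G of a normal pregnancy at 7–9 somite pairs, had the highest values for 3 forebrain and midbrain genes. It held 20 counts of Six3, 10 of Otx2 and 7 of Rax, or 16.9, 8.46 and 5.92 CPM, where the next highest yolk sacs reached 2.70, 2.33 and 0.907 CPM. In the same library En1, En2 and Egr2 had no count, Gbx2 had 1 count, and the neural plate markers summed to 19.5 CPM, the highest of its group. Whether embryonic tissue was carried over in dissection was not tested.

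At 5–6 somite pairs the forebrain genes Rax, Lhx2 and Six3 had lower levels in embryos of diabetic pregnancies and the hindbrain gene Gbx2 a higher one, and none passed the threshold. Rax, which is required for eye formation, had a lowest, median and highest level of 28.2, 43.9 and 104 normalized counts in normal embryos and of 1.99, 33.4 and 61.4 in diabetic embryos. The lowest normal embryo exceeded 8 of the 17 diabetic embryos, and the other 9 lay within the normal range. Lhx2 ranged from 36.5 over a median of 48.9 to 102 in normal and from 12.5 over 32.5 to 95.02 in diabetic embryos. For this gene 11 of 17 diabetic embryos lay below the lowest normal embryo. Six3 ranged from 121 over 173 to 311 in normal and from 37.5 over 145 to 222 in diabetic embryos, and 6 diabetic embryos lay below the normal range. Otx2, by contrast, ranged from 197 over 255 to 334 in normal and from 154 over 227 to 399 in diabetic embryos, with 3 diabetic embryos below the normal range.

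The level of Gbx2 in diabetic embryos extended upward. It ranged from 21.4 over a median of 45.4 to 67.7 in normal and from 28.1 over 52.2 to 150 in diabetic embryos, and 5 diabetic embryos exceeded every normal embryo. En1 ranged from 46.3 over 91.9 to 119 in normal and from 35.9 over 87.4 to 185 in diabetic embryos, with diabetic embryos both above and below the normal range, 2 and 3 of them respectively. Egr2 ranged from 6.72 over 17.5 to 41.3 and from 3.72 over 12.9 to 44.0, and the groups overlapped almost wholly. Hesx1 had medians of 3.30 and 1.85 normalized counts and En2 of 4.65 and 1.71, at which single molecules decide the value of an embryo.

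**Figure D2:**
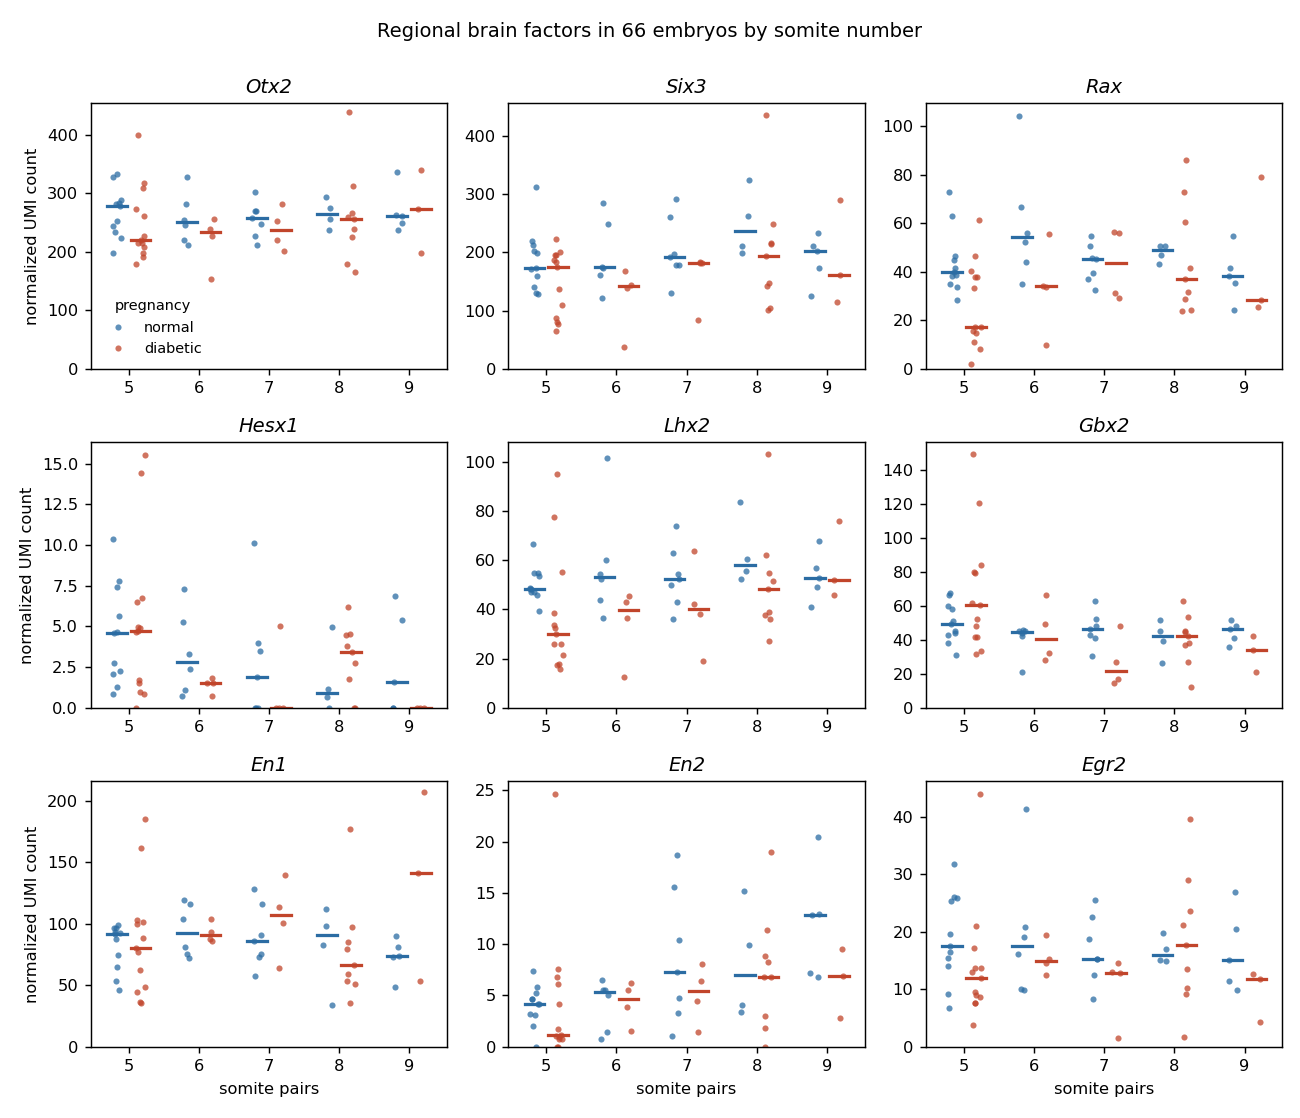
Normalized UMI count (vertical axis, linear and starting at 0) of each member in each of the 66 embryos by number of somite pairs (5 to 9), with normal pregnancies in blue, diabetic pregnancies in red and bars at the medians. At 5 somite pairs the diabetic embryos reach 1.99 for Rax, below the lowest normal embryo at 28.2, and 150 for Gbx2 is the highest value of any embryo.

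On the test across genes none of the 7 members that passed the filter was called at 5–6 somite pairs, where 1.46% of 11004 genes were called (edgeR quasi-likelihood test, 17 against 17). At an unadjusted p under 0.05 there were 4 members of 7 and 21% of all genes. Since the members were chosen with earlier results of these data known, this count is a description. The difference of diabetic minus normal on the log2 scale was −0.81 for Rax (SE 0.24, 95% interval −1.30 to −0.33, adjusted p = 0.0648), or 0.569 times the normal level. Lhx2 differed by −0.52 (SE 0.20, interval −0.92 to −0.13, adjusted p = 0.131), and Six3 by −0.42 (SE 0.17, interval −0.77 to −0.07, adjusted p = 0.161). Gbx2 differed by 0.40 (SE 0.18, interval 0.03 to 0.77, adjusted p = 0.202). For Otx2 the difference was −0.13 (SE 0.099, adjusted p = 0.451), for Egr2 −0.40 (interval −0.87 to 0.08, adjusted p = 0.321) and for En1 0.03 (interval −0.31 to 0.37, adjusted p = 0.933). The median difference over the 7 members was −0.40, beside 0.00 over all genes tested. DESeq2 called Rax (adjusted p = 0.041) and no other member, in a fit that called 500 of 17024 genes. Rax was not called with litter as a random block (−0.95, limma adjusted p = 0.226) or with counts summed per litter (−0.66, edgeR adjusted p = 0.387). The library titles begin with the number 23, 24 or 28, whose meaning the labels do not give. In the 25 embryos with 28 alone, 13 diabetic and 12 normal, the Rax difference was −0.98 and was called (edgeR adjusted p = 0.021), in a fit that called 1753 of 10960 genes. The other 2 numbers, with 1 to 4 embryos in each group, were not fitted on their own. Because these are whole embryos, fewer cells of a territory and less RNA per cell cannot be told apart.

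**Figure D3:**
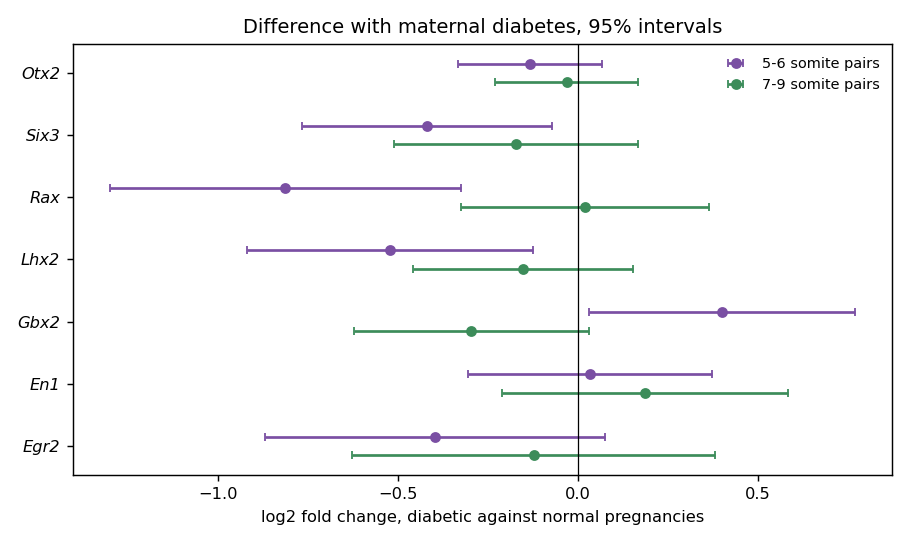
Log2 difference of embryos of diabetic minus normal pregnancies for the 7 members that passed the filter, with points at the edgeR estimate and bars for the 95% interval, at 5–6 (purple) and 7–9 (green) somite pairs. The Rax interval lies below 0 at 5–6 (−1.30 to −0.33) and spans 0 at 7–9 (−0.32 to 0.36).

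With the litter as the unit, since the dam is what differed, Rax and Lhx2 showed the smallest p at 5–6 somite pairs. The litter means of Rax ran from 28.2 over a median of 48.2 to 72.7 normalized counts in 10 normal litters and from 11.02 over 33.4 to 53.9 in 9 diabetic litters, and 8 of 9 diabetic litters lay below the normal median. The difference of litter means was −0.84 on log2 of the normalized count plus 1 (two-sided exact permutation test, 92378 splits, p = 0.00884). For Lhx2 the litter means ran from 39.5 over 50.7 to 63.6 and from 14.9 over 32.5 to 86.2, with 7 of 9 diabetic litters below the normal median (difference −0.64, exact permutation p = 0.0168). Six3 differed by −0.46 (exact permutation p = 0.0643) and Gbx2 by 0.36 (exact permutation p = 0.170). These p-values are unadjusted over 18 tests of 9 members and 2 stages, and the members were chosen with earlier results of these data known. A single litter, D28M37 with 2 embryos, had the highest Rax mean of the diabetic litters at 53.9, and without it edgeR called both Rax (−0.998, adjusted p = 0.0234) and Lhx2 (−0.82, adjusted p = 0.0144). Rax was also called when 1 of 2 normal litters, N23M31 (−0.84, adjusted p = 0.0387) or N24M21 (−0.83, adjusted p = 0.0450), was left out. The fits without D28M37, N23M31 and N24M21 called 323 of 11016, 560 of 10986 and 675 of 11043 genes. Over all 19 fits without 1 litter, the Rax difference ran from −0.998 to −0.66 (edgeR adjusted p 0.0234 to 0.250). That of Lhx2 ran from −0.82 to −0.41 (edgeR adjusted p 0.0144 to 0.381).

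**Figure D4:**
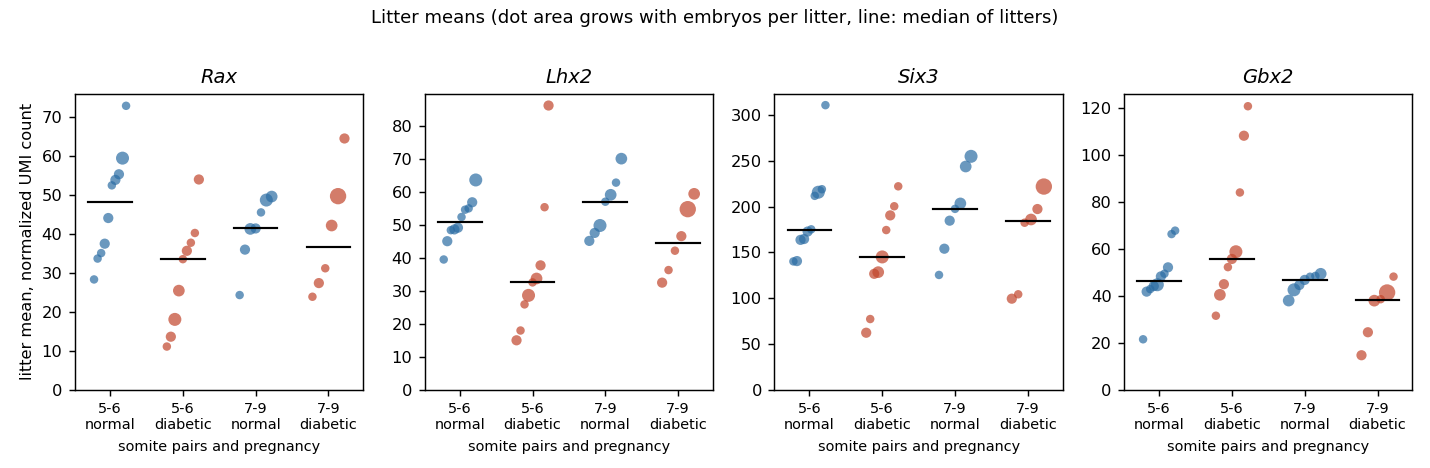
Litter means of Rax, Lhx2, Six3 and Gbx2 in normalized counts, by pregnancy and stage, with dot area proportional to the number of embryos and lines at the median of litters. For Rax at 5–6 somite pairs the 9 diabetic litters run from 11.02 to 53.9 and the 10 normal litters from 28.2 to 72.7.

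The summed markers of other cell types also had unlike levels in these groups, without a test. Neural plate markers had medians of 471 CPM in normal and 390 CPM in diabetic embryos at 5–6 somite pairs, with ranges of 283 to 701 and 181 to 561 CPM. Visceral endoderm markers had medians of 305 and 231 CPM and heart muscle markers of 694 and 576 CPM. Paraxial mesoderm markers had medians of 129 and 112 CPM, primitive erythroid markers of 20.7 and 15.3 CPM, and trophoblast and decidua markers of 7.95 and 9.79 CPM. Within groups, the correlation of members with the neural plate sum over 66 embryos was 0.67 for Six3, 0.47 for Rax and 0.48 for Lhx2, with both values from the same libraries and group means removed. The correlation was 0.54 for Egr2 and 0.50 for En1, so it was not particular to the forebrain genes. For Otx2 it was 0.32, for Hesx1 0.25, and for Gbx2 and En2 0.13. The part of the neural plate content in the lower levels of the forebrain genes was not tested. Without the 3 embryos richest in visceral endoderm markers, the Rax difference was −0.69 (adjusted p = 0.115).

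By 7–9 somite pairs the estimate for Rax lay near 0. Those for Lhx2 and Six3 were below 0 with intervals that spanned 0, and the lowest p was for Gbx2, now lower in diabetic embryos. Rax ranged from 24.2 over a median of 44.3 to 54.6 in normal and from 23.8 over 34.3 to 85.8 in diabetic embryos, of which 6 exceeded the highest normal embryo and 1 lay below the lowest. Lhx2 ranged from 35.9 over 53.4 to 83.7 and from 18.9 over 47.1 to 103, and Six3 from 125 over 200.2 to 323 and from 84.2 over 181 to 435. Otx2 ranged from 212 over 260 to 336 and from 165 over 254 to 440. Gbx2 ranged from 26.4 over 45.8 to 63.1 in normal and from 12.4 over 37.9 to 62.9 in diabetic embryos, and 4 diabetic embryos lay below every normal one. En1 ranged from 34.3 over 81.7 to 129 and from 35.4 over 82.0 to 207, and Egr2 from 8.34 over 15.2 to 26.9 and from 1.45 over 12.9 to 39.5.

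None of the 7 members was called at 7–9 somite pairs, where 9.09% of 10628 genes were called (edgeR, 16 against 16), and 0 members had an unadjusted p under 0.05, beside 27.4% of genes. DESeq2 called 0 as well. The log2 difference was 0.02 for Rax (interval −0.32 to 0.36, adjusted p = 0.952), −0.15 for Lhx2 (interval −0.46 to 0.15, adjusted p = 0.529), −0.17 for Six3 (interval −0.51 to 0.17, adjusted p = 0.518) and −0.30 for Gbx2 (SE 0.16, interval −0.62 to 0.03, adjusted p = 0.227). On litter means Gbx2 ran from 37.9 over 46.7 to 49.3 in 7 normal litters and from 14.6 over 38.2 to 48.1 in 6 diabetic litters (difference −0.51, two-sided exact permutation test over 1716 splits, unadjusted p = 0.0245). Of the 6 diabetic litters, 5 lay below the normal median. The same number did for Lhx2 (difference −0.35, exact permutation p = 0.0507) and for Six3 (−0.29, exact permutation p = 0.231). For Rax it was 4 (−0.12, exact permutation p = 0.605), and these p-values are also unadjusted. Heart muscle markers were higher in diabetic embryos at this stage, with medians of 1007 and 759 CPM, and whether this bears on the members was not tested.

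The spread between embryos was wider in diabetic than in normal pregnancies for all 7 members that passed the filter at both stages, as it was for 56.3% of 11004 genes tested at 5–6 and 59.1% of 10628 at 7–9 somite pairs. At 5–6 somite pairs the SD of log2 of the normalized count plus 1 was 1.15 in diabetic and 0.467 in normal embryos for Rax, 0.770 and 0.321 for Lhx2, 0.710 and 0.390 for Six3, 0.673 and 0.387 for Gbx2, and 0.331 and 0.226 for Otx2. At 7–9 somite pairs it was 0.626 and 0.303 for Rax, 0.671 and 0.301 for Gbx2, and 1.11 and 0.440 for Egr2. The highest Rax level was 30.9 times the lowest among diabetic and 3.69 times among normal embryos at 5–6 somite pairs. In litter D28M53 alone, 4 littermates at this stage ran from 1.99 to 37.9 normalized counts of Rax. These spreads are a description without a test.

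Between the stages the clearest change was in Gbx2, which fell in embryos of diabetic pregnancies. Its level went from a median of 52.2 at 5–6 to 37.9 at 7–9 somite pairs, a log2 change of −0.77 (SE 0.21, interval −1.204 to −0.34, edgeR adjusted p = 0.00676), or 0.586 times the earlier level. It was the only one of 7 tested members called, in a comparison that called 29.2% of 10711 genes. The call held in the 10 other fits to single embryos and in each fit without 1 litter. With counts summed per litter and stage, an alternative added after the data were seen, the change was −0.89 and missed the threshold (edgeR adjusted p = 0.0601). In normal embryos the change of Gbx2 was −0.09 (interval −0.33 to 0.15, adjusted p = 0.646), with medians of 45.4 and 45.8. In the 3 diabetic litters that held both stages the litter mean of Gbx2 was 108 at 5–6 and 41.4 at 7–9 somite pairs in D24M15, 40.4 and 14.6 in D28M23, and 52.2 and 24.4 in D28M36, lower at the later stage in all 3. Among the 7 normal litters that held both stages it was lower in 4.

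The forebrain genes had changes of the opposite sign in diabetic embryos that missed the threshold. Rax changed on the log2 scale by 0.65 (SE 0.27, interval 0.11 to 1.196, adjusted p = 0.0625), Lhx2 by 0.44 (SE 0.22, adjusted p = 0.129) and Six3 by 0.41 (SE 0.20, interval 0.00 to 0.83, adjusted p = 0.121). Without litter D28M37 the change was called for Rax (0.83, edgeR adjusted p = 0.0177) and Lhx2 (0.73, adjusted p = 0.00408), and without D28M36 for Rax (0.76, adjusted p = 0.0459). The fits without D28M37 and D28M36 called 3455 of 10747 and 2799 of 10758 genes. Over all 12 fits without 1 litter, the edgeR adjusted p reached 0.218 for Rax (lowest change 0.50) and 0.410 for Lhx2 (lowest change 0.33). Otx2, En1 and Egr2 had changes of 0.11, 0.11 and 0.08, and with litter as a random block the change of Egr2 was −0.30, also not called. In normal embryos none of the 7 tested members was called, where 15.1% of 10696 genes were (edgeR). No member had an unadjusted p under 0.05, and DESeq2, which also tested En2, called that gene alone. The normal changes were −0.21 for Rax (interval −0.50 to 0.07, adjusted p = 0.316), 0.14 for Six3 (adjusted p = 0.456) and −0.21 for Egr2 (adjusted p = 0.477). Within litters that held both stages, litter means of Egr2 were lower at 7–9 somite pairs in 7 of 7 normal and 3 of 3 diabetic litters. Those of Rax were lower in 6 of 7 normal and 1 of 3 diabetic litters, and the same counts held for En1. For Lhx2 they were lower in 3 of 7 and 1 of 3, for Six3 in 4 of 7 and 1 of 3, and for Otx2 in 5 of 7 and 1 of 3. These counts were taken after the values were seen and carry no test. The comparisons of stage and of pregnancy use the same embryos, so their values are not independent of each other.

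The difference between the stage changes of diabetic and normal embryos was tested as an interaction over all 66 embryos, and none of the 7 members was called, where 8.7% of 11304 genes were (edgeR). At an unadjusted p under 0.05 there were 2 members, Rax with an interaction of 0.85 on the log2 scale (SE 0.31, interval 0.24 to 1.46, adjusted p = 0.0654) and Gbx2 with −0.68 (SE 0.25, interval −1.19 to −0.18, adjusted p = 0.0701). DESeq2 called 0 members. Gbx2 was called with litter as a random block (limma adjusted p = 0.032) and in title number 28 alone (−0.81, edgeR adjusted p = 0.039). Those fits called 1292 of 11304 and 1735 of 11532 genes. The fits without litter D28M37 called Rax (1.02, adjusted p = 0.0200), Lhx2 (0.67, adjusted p = 0.0379) and Gbx2 (−0.75, adjusted p = 0.0425), and the fit without N23M31 called Rax (0.88, adjusted p = 0.0461) and Gbx2 (−0.73, adjusted p = 0.0455). The fits without D28M37 and N23M31 called 1480 of 11333 and 1425 of 11293 genes. Over all 22 fits without 1 litter, the edgeR adjusted p reached 0.149 for Rax, 0.545 for Lhx2 and 0.165 for Gbx2.

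Counted by somite pair over all 66 embryos, Gbx2 fell by 0.16 on the log2 scale per pair (SE 0.044, interval −0.24 to −0.07, edgeR adjusted p = 0.00653) and was the only one of 7 tested members called, where 25.3% of 11304 genes were called. Its mean level over both conditions was 60.0 normalized counts in 24 embryos with 5 somite pairs, and 42.1, 39.2, 40.5 and 40.1 in those with 6, 7, 8 and 9, so the largest step lay between 5 and 6 pairs. In diabetic embryos the means from 5 to 9 pairs were 68.1, 44.1, 26.6, 40.4 and 32.6, and in normal embryos 50.4, 40.7, 46.3, 40.8 and 44.7, with as few as 3 diabetic embryos at a number. In embryos with 8 pairs alone, the difference of diabetic minus normal was 0.02 on the log2 scale. Lhx2 (0.10, SE 0.044, adjusted p = 0.105) and Six3 (0.09, adjusted p = 0.121) had positive slopes that missed the threshold. In the embryos whose library titles begin with the number 28, the Gbx2 slope was −0.12 and was not called (adjusted p = 0.118).

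En2 and Hesx1 were too low for the filter and were tested without it. En2, which joins En1 at the midbrain-hindbrain boundary, rose between the stages in normal embryos, from a lowest, median and highest level of 0, 4.65 and 7.43 to 1.09, 8.63 and 20.4 normalized counts (log2 change 1.16, SE 0.30, interval 0.56 to 1.76, edgeR adjusted p = 0.0159). The ranges overlapped, and litter means were higher at the later stage in 7 of 7 normal litters with both stages. In diabetic embryos the levels were 0, 1.71 and 24.6 and then 0, 6.80 and 19.0, with a change of 0.55 (adjusted p = 0.423) and higher litter means in 2 of 3 litters. Per somite pair over all embryos En2 rose by 0.29 on the log2 scale (edgeR adjusted p = 0.0300). Hesx1 had a slope of −0.34 per somite pair (edgeR adjusted p = 0.0607, DESeq2 adjusted p = 0.0366), with a count in 17 of 17 normal embryos at 5–6 and in 10 of 16 at 7–9 somite pairs. In diabetic embryos it had a count in 16 of 17 and then in 8 of 16. The 15 embryos with no count of Hesx1 allow a level of up to 0.97 to 2.05 CPM, and the 4 with no count of En2 up to 1.06 to 2.25 CPM, taking 3 counts as the limit that a count of 0 leaves. En1, by contrast, changed by −0.06 in normal and 0.11 in diabetic embryos, neither of them called.

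Within groups, embryos high in 1 forebrain gene were high in the others. Over the 66 embryos, with the 4 group means removed and on log2 of the normalized count plus 1, Pearson's r was 0.75 between Lhx2 and Six3, 0.74 between Rax and Six3, 0.73 between Lhx2 and Rax, and 0.73 between Otx2 and Lhx2. Otx2 reached 0.61 with Six3 and 0.50 with Rax. Gbx2 stood apart, with r of −0.30 with Rax and with En1, −0.14 with Otx2 and 0.38 with Egr2. En1 had r of 0.37 to 0.47 with the forebrain genes and Otx2, and of 0.34 with Egr2. All these points come from the same libraries, whose totals and marker content they share, and littermates are among them, so the values are a description.

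**Figure D5:**
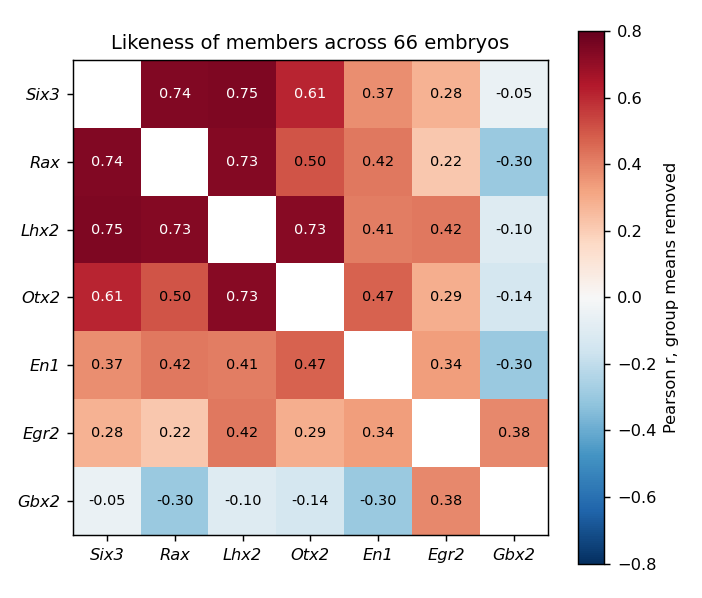
Pearson's r between pairs of the 7 members that passed the filter, over 66 embryos, on log2 of the normalized count plus 1 with the 4 group means removed. The block of Otx2, Six3, Rax and Lhx2 runs from 0.50 to 0.75, and Gbx2 reaches −0.30 with Rax and En1.

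Ordered by r among 10742 genes, the genes most like a forebrain member included the other forebrain members. For Otx2 the highest was Lhx2, followed by Fezf1 (0.64) and Otx1 (0.63). For Rax the order was Irs4 (0.79), Six3 and Lhx2, for Lhx2 it was Six3os1 (0.78), Six3 and Rax, and for Six3 it was C130093G08Rik (0.77), Lhx2 and Robo3 (0.74). Six3os1 is transcribed opposite to Six3, and the antisense reads may share its counts. The genes most like En1 were Fam181b (0.71), Otx1 (0.65) and Ccdc177 (0.62), and those most like Egr2 were Sox21 (0.69), Unk (0.63) and Lix1l (0.62). For Gbx2 they were Glyr1, G3bp1 (both 0.83) and Zfp281 (0.82), of which G3bp1 encodes a stress granule protein and Zfp281 a zinc finger transcription factor.

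Other genes of the same territories were counted from a list of 43, of which 11 were forebrain, 12 midbrain and isthmus, 10 hindbrain, 6 of tissue that induces the head and 4 of the neural plate at large. For maternal diabetes at 5–6 somite pairs 33 were tested and 1 was called, or 3.03% beside 1.46% of all genes. It was Hhex, a homeobox gene of the anterior visceral and definitive endoderm (log2 difference −0.58, SE 0.13, edgeR adjusted p = 0.0235). The Hhex call was lost with counts summed per litter (−0.62, adjusted p = 0.317), with litter as a random block (−0.63, limma adjusted p = 0.114) and with 5 somite pairs alone (−0.60, edgeR adjusted p = 0.276), and in 3 of 19 fits without 1 litter, D28M53 (adjusted p = 0.0528), N28M06 (adjusted p = 0.0725) and N28M30 (adjusted p = 0.0517). At 7–9 somite pairs 0 of 32 were called, beside 9.09% of all genes. The 7 forebrain genes tested had a median difference of −0.11 at 5–6 somite pairs. The median was −0.07 over 9 midbrain and isthmus genes and −0.20 over 9 hindbrain genes. Over 4 genes of head-inducing tissue it was 0.06, and over 4 of the neural plate at large −0.22. The eye and forebrain gene Pax6 differed by −0.49 (edgeR adjusted p = 0.0773) and Fezf1 by −0.52 (adjusted p = 0.163). In the other direction, Dlx5 differed by 0.46 (adjusted p = 0.108) and Lhx5 by 0.09 (adjusted p = 0.841). Outside the forebrain, Hes3 of the midbrain and isthmus differed by −0.38 (edgeR adjusted p = 0.0810) and the hindbrain gene Irx3 by −0.36 (adjusted p = 0.101). Sox2 of the neural plate differed by −0.26 (adjusted p = 0.118). Upward differences outside the forebrain included Dkk1 (0.38, adjusted p = 0.202) and Fgf8 (0.36, adjusted p = 0.308). All of these genes were named after their values were seen. Against the yolk sac, 2 of the 33 listed genes tested at 5–6 somite pairs were higher there, among them Cnpy1 (1.98), and 30 were lower.

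Between stages, 3 of the 7 tested forebrain genes were higher in normal embryos with 7–9 somite pairs, among them Pax6 (0.41, edgeR adjusted p = 0.0319) and Emx2 (0.48, adjusted p = 0.0459). In diabetic embryos Pax6 (0.77, adjusted p = 0.000183) and Emx2 (0.56, adjusted p = 0.0294) rose. Over the whole list 3 of 32 rose and 4 fell in normal embryos, 21.9% of those tested beside 15.1% of all genes, and 4 rose and 5 fell in diabetic embryos, 28.1% beside 29.2% of all genes, a share near the background. The genes that fell in normal embryos were Fgf15, a growth factor of the midbrain and diencephalon (−0.50, adjusted p = 0.000654), Hhex (−0.62, adjusted p = 0.00252), and the neural plate genes Sox2 (−0.33, adjusted p = 0.00862) and Pou3f1 (−0.45, adjusted p = 0.0192). In diabetic embryos the Wnt inhibitor Dkk1 (−0.59, adjusted p = 0.00364), Sox2 (−0.25, adjusted p = 0.0497) and Pou3f1 (−0.81, adjusted p = 0.00281) fell. Of the 9 hindbrain genes tested, 2 rose and 2 fell in diabetic embryos, among them Irx3 (0.55, adjusted p = 0.000541), Hoxb1 (0.43, adjusted p = 0.0193) and Epha4 (−0.27, adjusted p = 0.0133), and 0 of the 9 tested were called in normal embryos. Per somite pair 11 of 35 rose and 7 fell, 51.4% beside 25.3% of all genes, among them Wnt1, which the midbrain-hindbrain boundary uses as a signal (0.16, adjusted p = 0.00244), and Pax8, expressed at that boundary (0.28, adjusted p = 0.000219). The interaction was called for 2 of 35, Hhex (0.61) and Shisa2 (−0.96), an inhibitor of Wnt and Fgf receptors in the head, 5.71% beside 8.7% of all genes. Each of these calls was lost in 14 of 22 fits without 1 litter.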

How the data were processed

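RNA of individual embryos and yolk sacs was sequenced by the authors with QuantSeq 3′ FWD libraries, aligned with STAR and counted per gene with HTSeq after collapsing of UMIs. The deposited values are raw UMI counts per gene for all libraries, and the submitters' notes name mm10. Versions of STAR and HTSeq are not given in the sources used here. Genome positions and symbols are from GENCODE M21 for GRCm38.

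Groups follow the tissue, somite stage and maternal condition of the labels. The members and gene lists were chosen with earlier results of these data known. All genes were tested with edgeR 4.0.16 under R 4.3.3 (glmQLFit and glmQLFTest, TMM normalization, filterByExpr with a minimum count of 10, Benjamini-Hochberg adjustment, calls at adjusted p under 0.05). The SE is the log2 value divided by the square root of F. Levels are counts divided by DESeq2 1.42.0 size factors over 66 embryos. Litter means were compared by two-sided exact permutation, on log2 of the level plus a pseudocount of 1. The genes named beside the members are the 2 with the smallest adjusted p per region and comparison, with the 3 most like each member. Emx2 in normal embryos was named after its value was seen. Some listed genes are counted but not reported here by name. Nothing says that littermates are independent, so p-values over embryos measure the spread between embryos. Embryo and yolk sac of a conceptus come from the same animal, and a fit with the conceptus as a replicate block was an alternative. Other alternatives were DESeq2, no filter on low counts, sex, title number, somite number or litter (limma 3.58.1 duplicateCorrelation, or sums per litter), all 4 groups in 1 fit, and each litter left out. Fits were tested on simulated data that held no litter effect. The interval and SE of a fold change cover error between embryos taken as independent, at this depth. They leave out the likeness of littermates and may be too narrow for a condition of the dam. With litter as a random block, the correlation within litters was 0.25 for maternal diabetes at 5–6 and 0.13 at 7–9 somite pairs. It was 0.18 for the normal and 0.21 for the diabetic stage change.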

Additional observations from a re-analysis of the deposited data

Results flagged for a closer look

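Single embryos lay far from the others with the same number of somite pairs and the same maternal condition in 11 of 63 groups of 4 to 10 embryos, by Dixon's test at 95%, which flags about 1 in 20 groups by chance. Embryo D24M15J, from a diabetic pregnancy with 8 somite pairs, was highest of 9 for 3 members, with 435.2 normalized counts of Six3 (next highest 248), 103.3 of Lhx2 (next 62.2) and 177.0 of En1 (next 97.1). Embryo D28M36C, from a diabetic pregnancy with 7 somite pairs, was lowest of 4 for Six3 at 84.21 (next lowest 181) and for Egr2 at 1.452 (next 12.8). Embryo N28M06J, from a normal pregnancy with 6 somite pairs, was highest of 6 for Lhx2 at 101.5 (next 60.0) and for Egr2 at 41.27 (next 20.7). The other embryos stood apart in 1 member each. Otx2 was at 336.2 in the highest of 5 normal embryos with 9 somite pairs (next 264), and Gbx2 was at 21.41 in the lowest of 6 normal embryos with 6 somite pairs (next 42.1). Hesx1 was at 10.13 in the highest of 7 normal embryos with 7 somite pairs and at 5.014 in the highest of 4 diabetic embryos with 7 somite pairs, where the other 3 had no count.

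Among genes of the same territories, the stage change differed between diabetic and normal pregnancies for Hhex, with an interaction of 0.605 on the log2 scale (SE 0.20, edgeR adjusted p = 0.0426), and for Shisa2, with −0.959 (SE 0.32, adjusted p = 0.0473). They were 5.71% of the 35 listed genes tested, beside 8.7% of 11304 genes. Each call was lost in 14 of 22 fits without 1 litter, where the adjusted p ran from 0.0300 to 0.0950 for Hhex and from 0.0194 to 0.154 for Shisa2. Neither was called without the filter on low counts (edgeR adjusted p = 0.0875 for Hhex and 0.0879 for Shisa2). Shisa2 was not called with sex as a covariate (adjusted p = 0.0634), nor Hhex in title number 28 alone (adjusted p = 0.115).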

How the results depend on the processing

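Gbx2 stayed called for the stage change in diabetic embryos under all alternatives fitted to single embryos but not with sums per litter and stage (−0.89, adjusted p = 0.0601), and the yolk sac comparisons kept all 7 members called. The number of genes called for maternal diabetes at 5–6 somite pairs, 161, became 500 with DESeq2, 291 without the filter on low counts, 324 with the title number as a covariate, 1753 in title number 28 alone, 525 with 4 groups in 1 fit, 56 without the 3 embryos richest in visceral endoderm markers, 4 under the random litter block, and 0 with sums per litter or with 5 somite pairs alone. At 7–9 somite pairs the 966 became 1714 with the title number, 314 with the litter block, 8 with sums per litter and 69 with 8 somite pairs alone. In title number 28 alone the counts were 1972 for the diabetic stage change, 1735 for the interaction and 1425 per somite pair. Sums per litter and stage, added later, called 122 genes for the normal and 1101 for the diabetic stage change, with 0 members in each. The interaction called 438 genes without the filter and 2129 with the title number. Without the filter the yolk sac comparisons called 14180 and 14915. The causes were not tested, except that sums per litter and single somite numbers leave fewer samples and the unfiltered fits test more genes.

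DESeq2 and the fits without the filter tested 9 members. Members called at 5–6 somite pairs numbered 1 with DESeq2, title number 28 alone and 4 groups in 1 fit. Those fits called 500 of 17024, 1753 of 10960 and 525 of 11304 genes. For the normal stage change 1 was called with DESeq2 or no filter, beside 1775 of 14934 and 1262 of 26953 genes. For the diabetic one 2 were called with sex as a covariate or 4 groups in 1 fit, beside 3095 of 10711 and 3551 of 11304 genes. The interaction called 1 with the title number, with title number 28 alone and with the litter block. Genes called there were 2129 of 11304, 1735 of 11532 and 1292 of 11304. Per somite pair 3 were called with DESeq2, 2 without the filter and 0 in title number 28 alone. Beside them stood 3272 of 17614, 2659 of 29711 and 1425 of 11532 genes.

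Signs turned only for values that were not called. En1 at 5–6 somite pairs was −0.059 with sex and −0.048 with the litter block. At 7–9 somite pairs Rax was −0.11 in title number 28 alone, −0.14 with the litter block, −0.071 with sums per litter and −0.092 with 8 somite pairs alone, where Gbx2 was 0.025, En1 −0.085 and Egr2 0.22, and Egr2 was 0.010 without the visceral endoderm-rich embryos. The normal stage change of Otx2 was 0.0069 with the title number, 0.049 in title number 28 alone and 0.0091 with sums per litter. For the diabetic stage change En1 was −0.017 in title number 28 alone and −0.090 with sums per litter, and Egr2 was −0.095 with the title number, −0.31 in title number 28 alone, −0.30 with the litter block and −0.18 with sums per litter. In title number 28 alone the interaction was −0.024 for Otx2, −0.022 for En1 and −0.22 for Egr2, which was −0.11 with the litter block. The slope of En1 was −0.024 in title number 28 alone and −0.011 with the litter block. The litter means of Hesx1 at 5–6 somite pairs differed by 0.028 with a pseudocount of 5.

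Leaving out each litter in turn gave 4 (without N28M06) to 675 (without N24M21) genes called at 5–6 and 501 (without N28M05) to 1067 at 7–9 somite pairs, 489 (without N28M06) to 1910 for the normal stage change and 370 (without D28M23) to 1480 (without D28M37) for the interaction. Members called, of 7 tested, were 0 to 2 at 5–6 somite pairs, 1 to 3 for the diabetic stage change, 0 to 3 for the interaction and 1 to 2 per somite pair. Genes called ran from 2251 of 10975 (without D24M15) to 3455 of 10747 (without D28M37) for the diabetic stage change. Per somite pair they ran from 1922 of 11587 (without D24M15) to 3172 of 11322 (without N28M30). Values that turned sign ranged from −0.17 to 0.085 for En1 at 5–6, from −0.51 to 0.037 for Egr2, −0.058 to 0.017 for Otx2 and −0.12 to 0.10 for Rax at 7–9, from −0.11 to 0.0017 for En1 and −0.087 to 0.015 for Otx2 in the normal stage change, from −0.23 to 0.35 for Egr2 and −0.020 to 0.31 for En1 in the diabetic one, from −0.036 to 0.54 for Egr2 in the interaction, and per somite pair from −0.067 to 0.034 for Egr2 and −0.024 to 0.055 for En1.

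With the conceptus as a replicate block, which pairs embryo and yolk sac, 9284 genes at 5–6 and 9384 at 7–9 somite pairs were called, among them 7 and 7 members (Otx2 −6.79 and −7.26), and the block changed no call of a member. Embryos of diabetic and normal pregnancies come from different dams and cannot be paired. Hesx1 and En2 lie near single molecules, and differences in them were mostly not detectable at this depth.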
